A study of Homo sapiens with 6 samples.

Results

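ERBB3 and a set of other growth factor receptors were measured in TT cells, a human line grown from a medullary thyroid carcinoma, a tumor arising from thyroid C cells, which make calcitonin. The set held 10 genes, namely the ErbB receptors ERBB2, ERBB3 and EGFR, the insulin family receptors IGF1R and INSR with their docking protein IRS1, the FGF receptors FGFR1, FGFR2 and FGFR3, and the HGF receptor MET. Every probe named for 1 of these genes in the chip annotation was taken, whatever its signal, which gave 19 of the 47323 probes in the file, for 10 of 20045 named genes. The groups were TT cells treated with 10 μM Y15, TT cells treated with 10 μM PF04554878, and untreated TT cells, with 2 single-color Illumina bead arrays in each. Both compounds inhibit focal adhesion kinase (FAK), Y15 at its autophosphorylation site and PF04554878, also called defactinib, at its kinase domain. All groups were the same line, and the study's methods describe plates of treated cells in duplicate with no repeat of the experiment, so p-values measure only the spread between these arrays, which may be technical. Y15 was dissolved in PBS and PF04554878 in DMSO, and the controls are described as untreated, so each compound and its solvent cannot be told apart. Cells were collected a day after treatment. In separate assays the study reports lower viability of TT cells with both compounds. It also reports that most TT cells detached at Y15 doses such as the one used here, and that many died at a lower one. Whether detached cells were collected for the arrays is not stated, and the part of cell loss in the levels was not tested.

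Growth factor receptors are membrane proteins with a ligand-binding part outside the cell and a tyrosine kinase inside. For many of them, binding of a ligand brings receptors into pairs, and the kinases phosphorylate each other. Adaptor proteins then dock to start the PI3K to AKT and RAS to ERK cascades. ERBB3 has a very weak kinase of its own, binds neuregulins, and signals in pairs with ERBB2 or EGFR, with many docking sites for PI3K. FOXO factors, which AKT holds outside the nucleus, are known in other cancer cells to raise transcription of ERBB3, INSR and IGF1R. FAK sits at matrix adhesions and docks some of the same adaptors and PI3K.

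The promoter sequences of ERBB2, EGFR, IGF1R and MET are shown because the results below compare transcript levels of these genes. Promoters came from RefSeq (GRCh38.p14), each as the 250 bases upstream of an annotated start, and 8 of the 10 genes were matched (not ERBB3 or FGFR1), with 13 windows. Windows for 4 genes are printed 5′ to 3′ on the plus strand, at chr17:39687844-39688093 for ERBB2, chr7:55018767-55019016 for EGFR, chr15:98648289-98648538 for IGF1R and chr7:116671946-116672195 for MET. Capitals mark the GC box, searched as GGGCGG and as its reverse complement CCGCCC.
ERBB2: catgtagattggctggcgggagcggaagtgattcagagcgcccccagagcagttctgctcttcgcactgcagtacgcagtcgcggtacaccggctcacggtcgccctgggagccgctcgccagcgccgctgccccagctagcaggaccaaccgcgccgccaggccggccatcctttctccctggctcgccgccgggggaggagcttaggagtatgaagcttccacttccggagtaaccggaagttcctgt
EGFR: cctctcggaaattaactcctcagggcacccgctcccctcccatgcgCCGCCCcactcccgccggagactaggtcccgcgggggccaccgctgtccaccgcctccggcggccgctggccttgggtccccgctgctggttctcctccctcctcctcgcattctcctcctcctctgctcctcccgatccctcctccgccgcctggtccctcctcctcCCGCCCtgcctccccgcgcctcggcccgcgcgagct
IGF1R: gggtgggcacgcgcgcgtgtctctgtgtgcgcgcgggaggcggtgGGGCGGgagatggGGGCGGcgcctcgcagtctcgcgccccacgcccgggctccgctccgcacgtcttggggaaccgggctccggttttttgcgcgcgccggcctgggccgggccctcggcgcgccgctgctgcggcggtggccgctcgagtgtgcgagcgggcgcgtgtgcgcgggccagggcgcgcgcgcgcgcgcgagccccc
MET: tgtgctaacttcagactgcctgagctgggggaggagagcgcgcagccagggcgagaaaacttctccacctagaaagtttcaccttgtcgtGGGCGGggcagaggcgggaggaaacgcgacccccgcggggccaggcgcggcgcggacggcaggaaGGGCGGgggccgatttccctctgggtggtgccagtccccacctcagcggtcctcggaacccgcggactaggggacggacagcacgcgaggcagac
The windows of EGFR, IGF1R and MET each held 2 GC boxes and the ERBB2 window held 0. At least 1 GC box was present in 42.6% of 35116 windows of the same length, and at least 2 in 24.3%. The GC content was 65.6% for ERBB2, 73.6% for EGFR, 81.2% for IGF1R and 68.4% for MET, against a median of 58% over all windows. None of the 4 windows held TATAAA, present on either strand in 10.7% of all windows, or the forkhead motif TGTTTAC, present in 2.98%. These counts describe letters in the windows only, and no binding was measured here. The windows were not matched to the transcripts that the probes are annotated to, so a window may belong to another transcript of its gene.

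The 6 arrays differed in brightness. The mean signal above background was 0.452 times the untreated mean with Y15 and 0.638 times with PF04554878, and 15215 to 18488 probes were detected per array. A probe is called detected here when its detection p-value was below 0.01, that is, when few negative control beads reached its brightness. Log2 levels below were quantile normalized, which gives all arrays 1 distribution, so a higher log2 level can go with a lower raw intensity. The cell label was checked with marker genes, and 11 of 12 C-cell markers were on the chip, 10 of them detected on all 6 arrays. Of the markers of other cells, 1 of 5 follicular (DIO1), 1 of 6 fibroblast (LUM), 2 of 5 immune (CD14 and CD74, with PTPRC, CD3E and LYZ detected on 0 arrays) and 0 of 5 endothelial genes were detected on at least 2 arrays. The mean log2 level of the immune list was 7.33 to 7.37 on the Y15 arrays, 7.66 to 7.70 on the PF04554878 arrays and 7.28 to 7.33 on the untreated arrays. Over all arrays CD74 ranged from 8.60 to 9.97 and CD14 from 7.62 to 8.03. The C-cell list, which includes RET, had means of 10.98 to 11.01 with Y15, 11.41 to 11.49 with PF04554878 and 11.35 to 11.41 in untreated cells. The part of these marker levels in the results was not tested.

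Of the 19 probes, 12 were detected on no array. INSR, FGFR1, FGFR2, FGFR3 and IRS1 had no detected probe, and neither did 2 of 3 probes of ERBB2 and 3 of 4 of EGFR. The intensity of these 12 probes was 0.869 to 1.26 times the background of its array. Their log2 levels lay between 6.50 and 7.01, and no probe spanned more than 0.216 over the 6 arrays. When all probes were fitted without a detection filter, 0 of these 12 passed in any comparison by limma with Benjamini-Hochberg adjustment, their log2 changes being -0.08 to 0.08 for Y15 against untreated, -0.10 to 0.05 for PF04554878 against untreated and -0.09 to 0.12 for Y15 against PF04554878. A level at background gives only a bound, so a change of these transcripts below the background was not detectable. The remaining 7 probes, of ERBB3 (3 probes), ERBB2, EGFR, IGF1R and MET (1 probe each), were detected on at least 2 arrays and were tested.

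**Figure D1:**
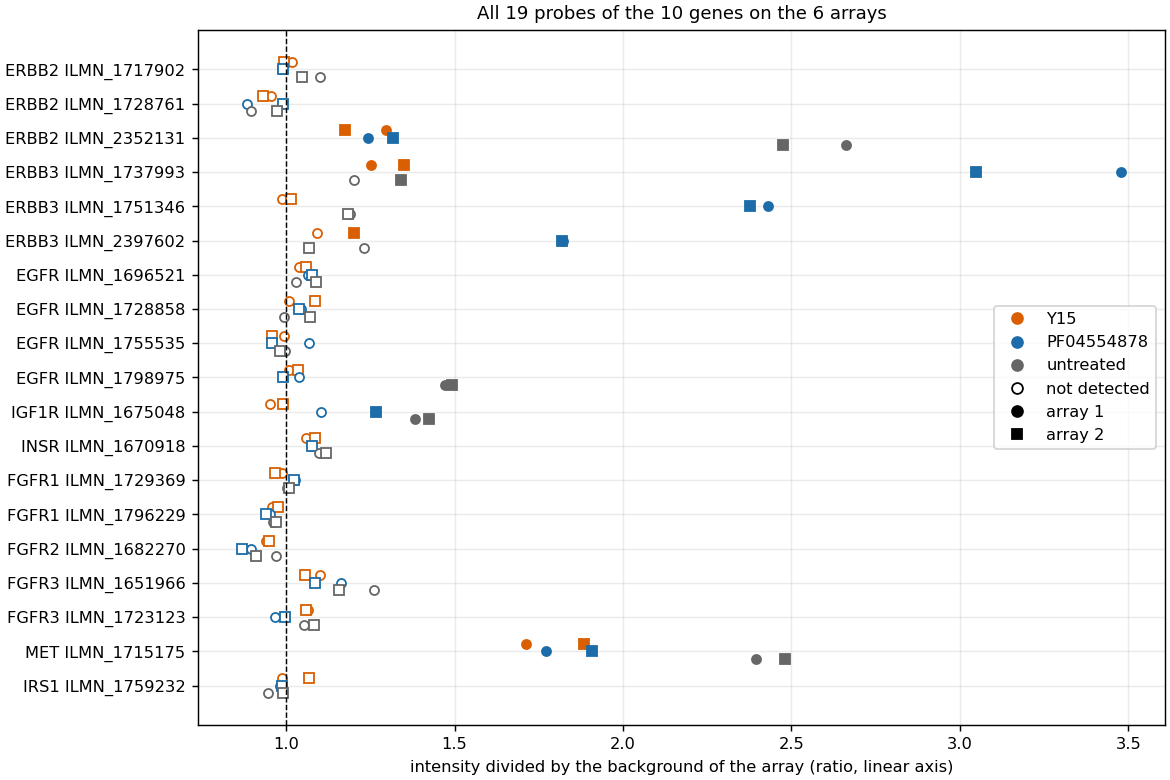
Intensity of each of the 19 probes (rows) divided by the background of its array (linear axis), with Y15, PF04554878 and untreated arrays from top to bottom within a row. Filled points were detected and open points were not. The 12 probes with only open points lie between 0.869 and 1.26 times background.

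ERBB3 was the member with the largest log2 change. On its brightest probe, detected on 5 of 6 arrays, it was 3.35-fold higher in PF04554878-treated cells than in untreated cells. The other 2 ERBB3 probes were also higher there, but they could be tested only because they were detected with PF04554878, so they add no support of their own. The study names ERBB3 as induced by PF04554878 from these same arrays, so the direction here is not independent evidence. Its supplement gives a smaller rise than the 3.35-fold here and lists ERBB3 as specific to PF04554878, without a significant change with Y15. With Y15 the 3 probes differed in direction, and only the brightest passed.

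On the brightest ERBB3 probe (ILMN_1737993, annotated to NM_001005915) the log2 levels were 7.20 and 7.32 in Y15-treated cells, 8.78 and 8.59 in PF04554878-treated cells and 6.89 and 6.998 in untreated cells. Both PF04554878 arrays lay above the other 4, and both Y15 arrays lay above both untreated arrays, of which only 1 was a detection. The unscaled intensities were 117 and 124 with Y15, 372 and 321 with PF04554878 and 142 and 153 in untreated cells, so here the Y15 arrays were the dimmest. The change was 1.74 ± 0.10 (log2 ± SE, adjusted p = 4.14e-06, limma with Benjamini-Hochberg over 18876 probes) for PF04554878 against untreated. Of all tested probes, 267 had a larger rise in that comparison. For Y15 against untreated the change was 0.31 ± 0.10, or 1.24-fold (adjusted p = 0.0415 by limma, 95% interval 0.08 to 0.55). The call with Y15 was lost without either Y15 array (adjusted p = 0.0908 and 0.203) or either untreated array (0.159 and 0.0529), with each array scaled to its median over all probes the change was 0.07, and with no scaling it was -0.29.

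The second ERBB3 probe (ILMN_1751346) is annotated to NM_001982, the transcript of the full-length receptor. Its log2 levels were 6.69 and 6.73 with Y15, 8.28 and 8.23 with PF04554878 and 6.88 and 6.90 in untreated cells. It was detected only on the 2 PF04554878 arrays, at 2.43 and 2.38 times background. The rise with PF04554878 against untreated was at least 2.53-fold (log2 change 1.37 ± 0.08, adjusted p = 4.76e-06, limma), but the probe passed the detection filter only through these 2 arrays and so had to be higher there. Bounds of this kind set the bright mean against the lowest level that counted as detected on the dim arrays, or the probe's own level there if that was higher. The Y15 and untreated arrays did not overlap, but both were below detection, and the log2 difference of -0.18 did not pass (adjusted p = 0.117, limma).

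The third ERBB3 probe (ILMN_2397602, annotated to NM_001005915) had log2 levels of 6.87 and 7.07 with Y15, 7.84 and 7.82 with PF04554878 and 6.91 and 6.79 in untreated cells. The PF04554878 arrays again stood above the other 4, while Y15 and untreated arrays overlapped. The rise with PF04554878 was at least 1.89-fold (log2 change 0.98 ± 0.10, adjusted p = 6.88e-05, limma), and the difference of 0.12 between Y15 and untreated cells did not pass (adjusted p = 0.394). NM_001005915 is the accession of a shorter ERBB3 transcript that encodes a truncated receptor. Whether a probe reads 1 transcript or several was not tested, and levels of different probes are not set against each other.

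**Figure D2:**
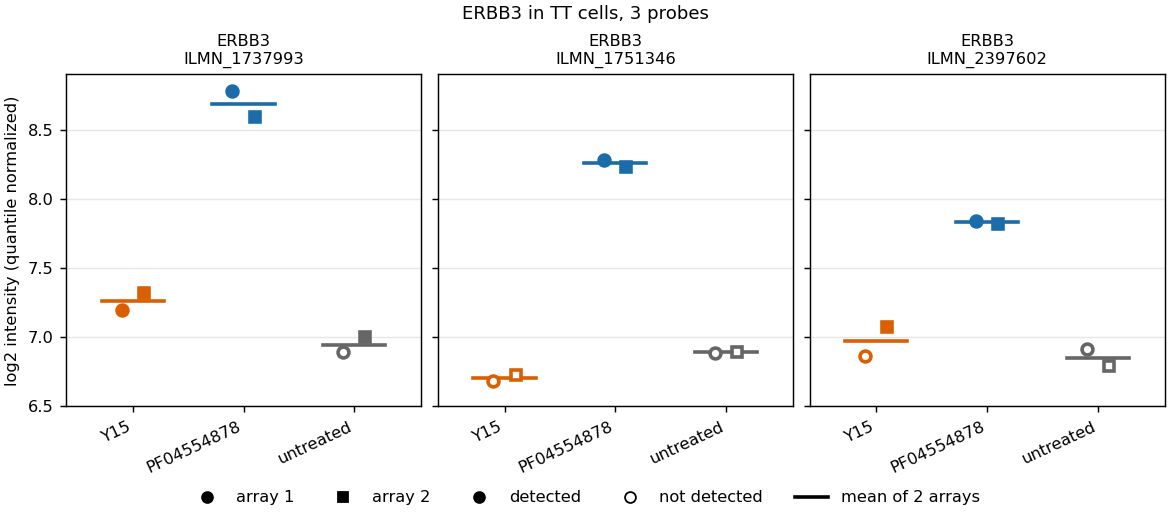
Quantile-normalized log2 intensity (vertical axis) of the 3 ERBB3 probes on each array in Y15-treated, PF04554878-treated and untreated TT cells, with bars at the mean of 2 arrays and open points where the probe was not detected. On every probe the PF04554878 arrays lie above the other 4, by 1.74, 1.37 and 0.98 on average over untreated.

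Set against each other at the same dose of 10 μM, Y15 gave less ERBB3 signal than PF04554878 on all 3 probes. The log2 difference was -1.43 (adjusted p = 1.2e-05, limma) on ILMN_1737993 and -0.86 (adjusted p = 0.000146) on ILMN_2397602. On ILMN_1751346 ERBB3 was at least 2.38-fold lower with Y15 (adjusted p = 3.42e-06, limma). These differences and those against untreated use the same PF04554878 arrays. ILMN_1751346 entered the test only through the PF04554878 arrays and ILMN_2397602 through these and 1 Y15 array, so a difference on them was built into the choice of tested probes.

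The rise of ERBB3 with PF04554878 against untreated kept its direction and passed in each of the other scalings. Its size did depend on them. With no scaling between arrays, an alternative added after seeing the data, the log2 change was 1.23, 0.89 and 0.54 on ILMN_1737993, ILMN_1751346 and ILMN_2397602, and with neqc background correction it was 3.42, 3.04 and 2.50. Leaving out any 1 array moved it no further than 1.65 to 1.84, 1.34 to 1.39 and 0.92 to 1.04.

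**Figure D3:**
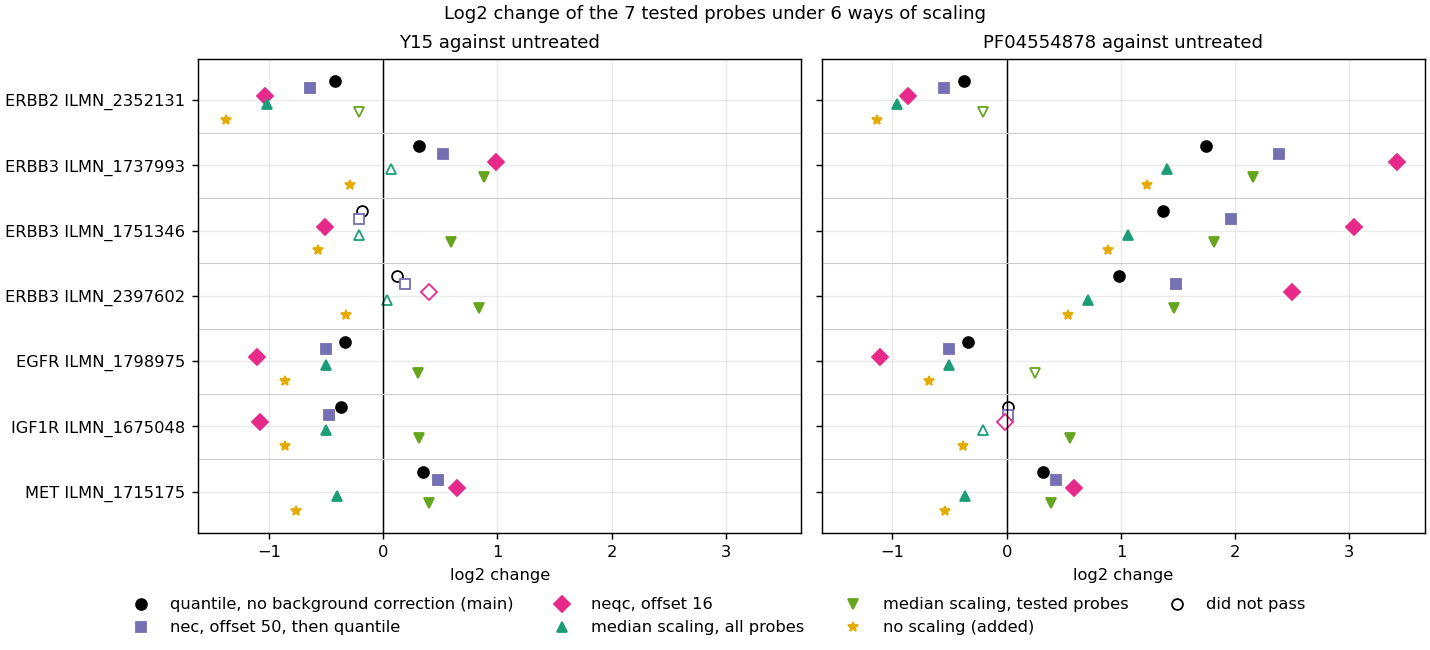
Log2 change of the 7 tested probes (rows) for Y15 against untreated and for PF04554878 against untreated, under 6 ways of background correction and scaling. Filled symbols passed the test and open symbols did not. Only the ERBB3 probes with PF04554878 stay on 1 side of 0, filled, in all 6 settings, while the MET points lie on both sides of 0.

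ERBB2, the ErbB receptor with no known ligand and the main partner of ERBB3, was lower with both compounds. On its 1 detected probe (ILMN_2352131) the log2 levels were 7.29 and 7.02 in Y15-treated cells, 7.16 and 7.25 in PF04554878-treated cells and 7.57 and 7.59 in untreated cells. Both untreated arrays lay above all 4 treated arrays. The change was -0.43 ± 0.11 with Y15 (adjusted p = 0.0158, limma) and -0.37 ± 0.11 with PF04554878 (adjusted p = 0.0161), both against untreated. Between the compounds the log2 difference was -0.05 (95% interval -0.30 to 0.19, Y15 minus PF04554878), and their arrays overlapped. ERBB2 was lower in every scaling tried, but with each array scaled to its median over the tested probes the calls were lost (log2 change -0.21 with each compound). The Y15 call was also lost without Y15 array 2 (log2 change -0.29, adjusted p = 0.105, limma), and the PF04554878 call without PF04554878 array 1 (-0.32, adjusted p = 0.0852).

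EGFR, the receptor for EGF, TGFA and HBEGF, was near background in all samples. Its 1 detected probe (ILMN_1798975, annotated to NM_005228, the transcript of the full-length receptor) had log2 levels of 6.72 and 6.76 with Y15, 6.78 and 6.70 with PF04554878 and 7.05 and 7.09 in untreated cells. It was detected on both untreated arrays, at 1.47 and 1.49 times background, and on no treated array, so it entered the test only through the untreated arrays, where it had to be higher. EGFR was at least 1.05-fold lower with Y15 (adjusted p = 0.0169, limma) and at least 1.03-fold lower with PF04554878 (adjusted p = 0.0088). With each array scaled to its median over the tested probes the direction turned, to log2 changes of 0.31 with Y15, which passed, and 0.25 with PF04554878, which did not. Between the compounds EGFR was below detection on both sides. Without Y15 array 1, Y15 array 2 or untreated array 2 the Y15 call was lost (adjusted p = 0.0919, 0.0669 and 0.067, limma).

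IGF1R, the receptor for IGF1 and IGF2, was lower with Y15 than in untreated cells. The log2 levels on its only probe (ILMN_1675048) were 6.63 and 6.69 with Y15, 6.89 and 7.18 with PF04554878 and 7.003 and 7.05 in untreated cells. The Y15 arrays, where the probe was not detected, lay below the other 4, while the PF04554878 arrays lay on either side of the untreated ones. IGF1R was at least 1.01-fold lower with Y15 against untreated (adjusted p = 0.0325, limma) and at least 1.02-fold lower with Y15 against PF04554878 (adjusted p = 0.0185). The probe entered the test only through the untreated arrays and 1 PF04554878 array, so a lower level with Y15 was built into its choice. For PF04554878 against untreated the log2 change was 0.01 (95% interval -0.24 to 0.26). The fall with Y15 against untreated lost its call without either Y15 array (adjusted p = 0.159 and 0.108) or either untreated array (0.0613 and 0.0883), and with each array scaled to its median over the tested probes it turned to a rise of 0.31, while the change with PF04554878 became 0.55 and passed. Against PF04554878 the call was lost without PF04554878 array 2 (log2 difference -0.23, adjusted p = 0.0998, limma), without Y15 array 1 (-0.35, 0.101) or without Y15 array 2 (-0.40, 0.065). It was also lost with each array scaled to its median over all probes (-0.29, 0.0515) or over the tested probes (-0.24, 0.0985).

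MET, the receptor for HGF, was detected on all 6 arrays. The log2 levels on its only probe (ILMN_1715175) were 7.83 and 7.93 with Y15, 7.80 and 7.89 with PF04554878 and 7.47 and 7.59 in untreated cells, all treated arrays lying above the untreated ones. The change was 0.35 ± 0.09 with Y15 (adjusted p = 0.0189, limma) and 0.32 ± 0.09 with PF04554878 (adjusted p = 0.0168), and the compounds differed by 0.03 (95% interval -0.18 to 0.24). The direction depended on the scaling. The unscaled MET intensities were 160 and 173 with Y15, 189 and 201 with PF04554878 and 284 and 284 in untreated cells, and with each array scaled to its median over all probes the log2 changes were -0.41 and -0.37, both past the threshold. Without Y15 array 1, Y15 array 2 or untreated array 1 the Y15 call was lost (adjusted p = 0.0605, 0.113 and 0.095, limma), and without PF04554878 array 2 or untreated array 1 the PF04554878 call was lost (0.0802 and 0.0951).

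**Figure D4:**
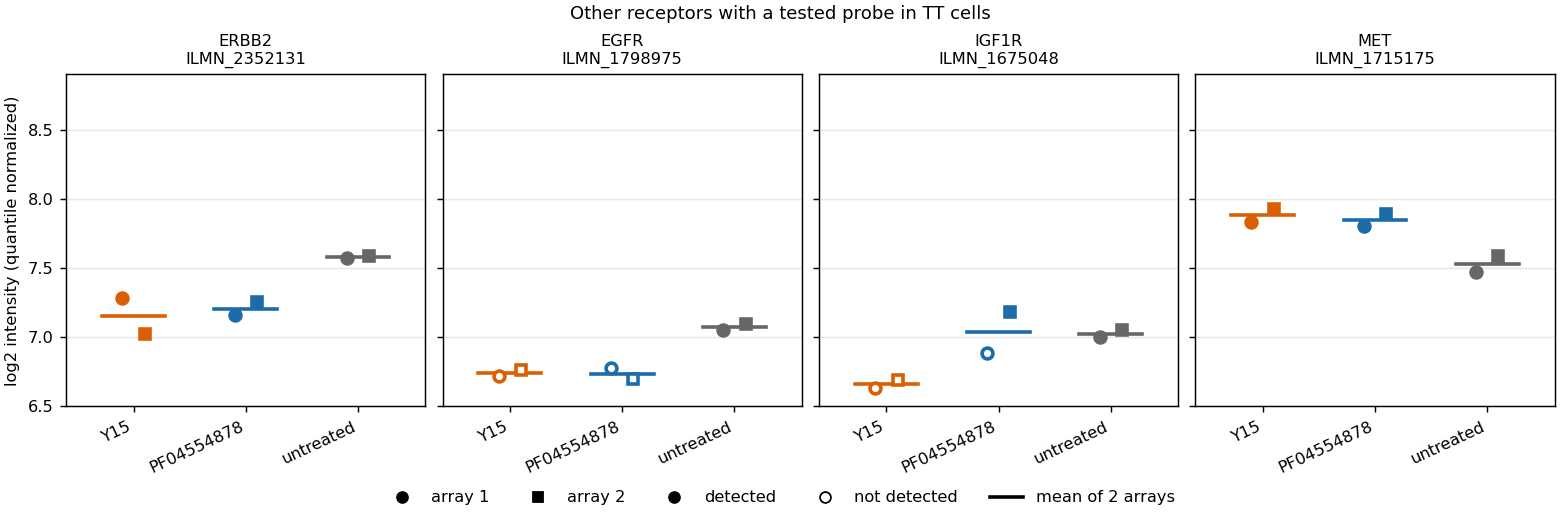
Quantile-normalized log2 intensity (vertical axis) of the tested ERBB2, EGFR, IGF1R and MET probes on each array in Y15-treated, PF04554878-treated and untreated TT cells, drawn to the same scale as ERBB3. Bars are means of 2 arrays and open points were not detected. Mean differences from untreated are at most 0.43 on the log2 scale.

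Over the tested probes of the set, 2 of 7 were higher and 3 lower with Y15 against untreated, where 36.4% of all 18876 tested probes passed, 16% higher and 20.4% lower. With PF04554878 against untreated 4 of 7 were higher and 2 lower, where 58% of all tested probes passed, 28.2% higher and 29.8% lower. With Y15 against PF04554878 0 of 7 were higher and 4 lower, where 56.7% of all tested probes passed, 27.8% higher and 28.9% lower. The split depended on the scaling. With Y15 against untreated it was 0 higher and 4 lower after scaling to the median over all probes, 6 higher and 0 lower after scaling to that of the tested probes, and 0 higher and 7 lower without scaling. With PF04554878 against untreated these splits were 3 and 3, 5 and 0, and 3 and 4. The 3 ERBB3 probes share 1 gene, and 4 of the 7 probes were detected on only 2 or 3 arrays, so these counts are a description.

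The other genes of the receptor pathways were read from 8 lists with 182 entries, of which 100 genes were detected on at least 2 arrays, each taken by its brightest tested probe. Of these, 17 were higher and 23 lower with Y15 against untreated, while 38.1% of all 11388 genes passed, 16.7% higher and 21.4% lower. With PF04554878 against untreated 35 were higher and 24 lower, while 62.2% of all genes passed, 27.2% higher and 35% lower. With Y15 against PF04554878 25 were higher and 44 lower, while 60.6% of all genes passed, 32.9% higher and 27.6% lower. These shares of all genes are also the ones to set beside the counts of each list below. Without Y15 array 1 or Y15 array 2 the count of genes passing with Y15 against untreated was 21 or 23 in place of 40. With each array scaled to its median over all probes that count was 2 higher and 75 lower. Scaling to the median of the tested probes gave 43 higher and 27 lower. For PF04554878 against untreated the first of these scalings gave 13 higher and 57 lower and the other 60 higher and 17 lower, so the balance of higher and lower genes turned with the scaling in both comparisons.

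Among the ErbB ligands, TGFA and HBEGF passed in both comparisons with untreated. HBEGF, a membrane-anchored ligand of EGFR, had log2 levels of 8.43 and 8.47 with Y15, 6.97 and 6.89 with PF04554878 and 7.36 and 7.37 in untreated cells. The 3 groups did not overlap, with HBEGF highest in Y15-treated cells and not detected in PF04554878-treated cells. The change was 1.08 with Y15 against untreated (adjusted p = 9.07e-05, limma), and HBEGF was at least 1.26-fold lower with PF04554878 (adjusted p = 0.00222). TGFA, another EGFR ligand, was lower with both, by log2 changes of -0.77 with Y15 and -0.65 with PF04554878. The other 3 tested ligands, EREG, NRG2 and NRG3, did not pass in either comparison, and the list median was -0.06 with Y15 and -0.22 with PF04554878, against -0.05 and -0.07 over all genes.

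The tested genes around the insulin family receptors were IGF binding proteins, which hold IGFs outside the cell. IGFBP2 had log2 levels of 9.78 and 9.83 with Y15, 11.05 and 11.21 with PF04554878 and 10.22 and 10.05 in untreated cells, with no overlap between groups. IGFBP2 was lower with Y15 (log2 change -0.33, adjusted p = 0.0311, limma) and higher with PF04554878 (0.99, adjusted p = 6.08e-05). IGFBP5 was lower with Y15 (-0.90) and IGFBP6 higher with PF04554878 (0.59, but -0.15 with arrays scaled to the median over all probes). All 4 tested genes of this list (IGFBP2, IGFBP4, IGFBP5 and IGFBP6) were lower with Y15 than with PF04554878. In that comparison 60.6% of all 11388 genes passed and 27.6% were lower, and IGFBP4 was near the threshold (adjusted p = 0.0317, limma).

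Among genes of the FGF and HGF families, not all of which encode receptor ligands, 2 of 7 tested were higher with Y15 against untreated. These were FGF18 (log2 change 0.40, second probe -0.05) and FGF23 (at least 1.29-fold, detected on the Y15 arrays alone). With PF04554878 FGF8 (at least 1.26-fold, detected on the PF04554878 arrays alone) and MST1 (0.60) were higher, and FGF9 was lower. FGF23 and FGF8 were each tested only through the arrays that detected them, where they had to be higher. FGF9 had log2 levels of 9.94 and 9.96 with Y15, 8.001 and 8.12 with PF04554878 and 9.30 and 9.82 in untreated cells, its PF04554878 arrays lying below the other 4 (log2 change -1.51, adjusted p = 6.83e-05, limma). A second FGF9 probe had a log2 change of -0.26.

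Of 19 other receptor tyrosine kinases, 1 was higher and 6 lower with Y15, and 6 were higher and 5 lower with PF04554878. RET, the receptor whose activating mutations drive medullary thyroid carcinoma, had log2 levels of 11.36 and 11.33 with Y15, 12.17 and 12.11 with PF04554878 and 12.11 and 12.38 in untreated cells. The Y15 arrays lay below the other 4, and RET was lower with Y15 (log2 change -0.90, adjusted p = 0.000534, limma), with 2 further probes at -0.68 and -1.08. KIT, the receptor for stem cell factor, was lower with both compounds, by -0.51 with Y15 and -0.96 with PF04554878. So was the ephrin receptor EPHB1, by -0.54 with Y15 and at least 2.04-fold with PF04554878. AATK was the 1 gene higher with Y15 (0.47, second probe 0.16), and it was also higher with PF04554878 (0.43, second probe 0.13). FGFR4, the fourth FGF receptor, was detected only with PF04554878, on both arrays, and was at least 1.42-fold higher there than in untreated cells (adjusted p = 0.00121, limma), a rise that its detection on these arrays alone had to give. EPHB3 (at least 1.23-fold), TYRO3 (-0.44) and ROR2 were the other genes lower with PF04554878. ROR2 was detected on the untreated arrays alone, where it had to be higher, and near the detection limit, so no fold is given. AATK with Y15 turned to lower with the median over all probes, and ROR2 with PF04554878 to higher with that over the tested probes.

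Among 21 adaptors that dock to activated receptors, 7 were higher with each compound, with 3 lower with Y15 and 2 lower with PF04554878. CRKL, which links receptors and FAK partners to small GTPases, had log2 levels of 10.93 and 10.92 with Y15, 11.55 and 11.59 with PF04554878 and 10.14 and 10.12 in untreated cells. The groups did not overlap, and the change was 0.80 with Y15 (adjusted p = 0.000277, limma) and 1.45 with PF04554878 (adjusted p = 3.66e-06). GRB2, which brings SOS to receptors, was higher with PF04554878 (1.31, second probe 0.54) and also with Y15 (0.36, second probe 0.20). GRB10, which binds the insulin and IGF1 receptors, was higher with both (0.70 with Y15 and 1.10 with PF04554878). Its 2 further probes were at 0.08 and 0.12 with Y15 and at 0.64 and 0.39 with PF04554878. NCK1 was higher with Y15 (0.76) and with PF04554878 (0.58), although a second NCK1 probe was at -0.07 and -0.26. SHC1 was lower with Y15 (-0.50) and with PF04554878 (-0.30), but its 2 further probes were at -0.16 and -0.05 with Y15 and at 0.15 and 0.75 with PF04554878. SHC4 was at least 1.03-fold lower with Y15 and at least 1.01-fold lower with PF04554878. Its detection on the untreated arrays alone had to give these differences. SOS1 passed as lower with Y15, where it was not detected, and no fold is given because its untreated level lay at the detection limit. SOS1 was tested only through the untreated arrays and 1 PF04554878 array, so a lower level with Y15 was built into its choice. With each array scaled to its median over all probes, CRKL, GRB10 and NCK1 turned to lower with Y15, while scaling to the median of the tested probes turned SHC4 to higher with both compounds, SOS1 to higher with Y15 and SHC1 to higher with PF04554878.

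Among 18 genes that restrain receptors, 3 were higher and 5 lower with Y15, and 6 were higher and 6 lower with PF04554878. CBL, a ubiquitin ligase that marks activated receptors for breakdown, had log2 levels of 7.60 and 7.70 with Y15, 9.23 and 9.31 with PF04554878 and 7.76 and 8.02 in untreated cells. It was higher with PF04554878 (log2 change 1.38, adjusted p = 1.6e-05, limma) and a second probe was at 1.26. SOCS5, linked to breakdown of EGFR, showed a change of 2.49 with PF04554878, but a second SOCS5 probe was at -0.11. PTPN1, a phosphatase of the insulin receptor, was higher with both compounds (0.58 with Y15 and 1.44 with PF04554878). With Y15 ERRFI1, an inhibitor of ErbB kinases, was higher (0.58), as was LRIG2 (0.35). The scavenging receptor IGF2R (-0.94), SOCS4 (-0.89), PTPRF (-0.85), PTPN2 (-0.42, second probe 0.05) and LRIG1 (-0.33) were lower with Y15. With PF04554878 LRIG2 (0.45) and SOCS4 (0.48) also passed, both as higher, and PTPN2 (-0.90, second probe -0.02) as lower. With each array scaled to its median over all probes, ERRFI1 and PTPN1 turned to lower with Y15.

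In the PI3K to FOXO list of 15 tested genes, 2 were higher and 3 lower with Y15, and 6 were higher and 5 lower with PF04554878. FOXO3 had log2 levels of 10.51 and 10.52 with Y15, 9.17 and 9.43 with PF04554878 and 8.63 and 8.97 in untreated cells. The groups did not overlap, and the change was 1.71 with Y15 (adjusted p = 8.55e-05, limma, second probe 0.73) and 0.50 with PF04554878 (adjusted p = 0.0115). FOXO4 (0.36, but -0.43 with arrays scaled to the median over all probes) was also higher with Y15. AKT1 (-0.50, further probes -0.01 and 0.01), PDPK1 (-0.35, second probe -0.20) and RPTOR (-0.32) were lower with Y15. With PF04554878 TSC1, which restrains mTOR, was higher by 1.98, with 2 further probes at 0.30 and 1.72, and PDPK1, the kinase that activates AKT, by 1.52, with a second probe at 0.28. Lower with PF04554878 were MTOR (-0.87) and the PI3K subunits PIK3R1 (at least 1.43-fold) and PIK3CB (at least 1.15-fold). So were RPTOR (at least 1.58-fold) and INPP4B (at least 1.03-fold, but higher with the median over the tested probes). PIK3CB and INPP4B were each tested only through the untreated arrays and 1 Y15 array, so a lower level with PF04554878 was built into their choice.

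In the RAS to ERK list of 11 tested genes, 1 was higher and 3 lower with Y15, and 6 were higher and 3 lower with PF04554878. SPRED1 and SPRED2, which restrain RAS signaling, differed in direction with PF04554878, at log2 changes of -1.20 and 1.40. SPRED2 had log2 levels of 7.99 and 7.78 with Y15, 9.71 and 9.84 with PF04554878 and 8.24 and 8.51 in untreated cells. With Y15 both were lower (-0.51 for SPRED1 and -0.49 for SPRED2), as was PHLDA1 (-0.43, second probe -0.01). HRAS was higher with Y15 (0.38, second probe 0.18, but -0.77 with arrays scaled to the median over all probes). It was also higher with PF04554878 (0.83, second probe 0.61). NF1, which turns RAS off, was higher with PF04554878 (0.88), while the RAF kinase ARAF (-0.76) and PHLDA1 (-0.66, second probe 0.39) were lower. The list median was -0.03 with Y15 and 0.42 with PF04554878, against -0.05 and -0.07 over all genes.

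**Figure D5:**
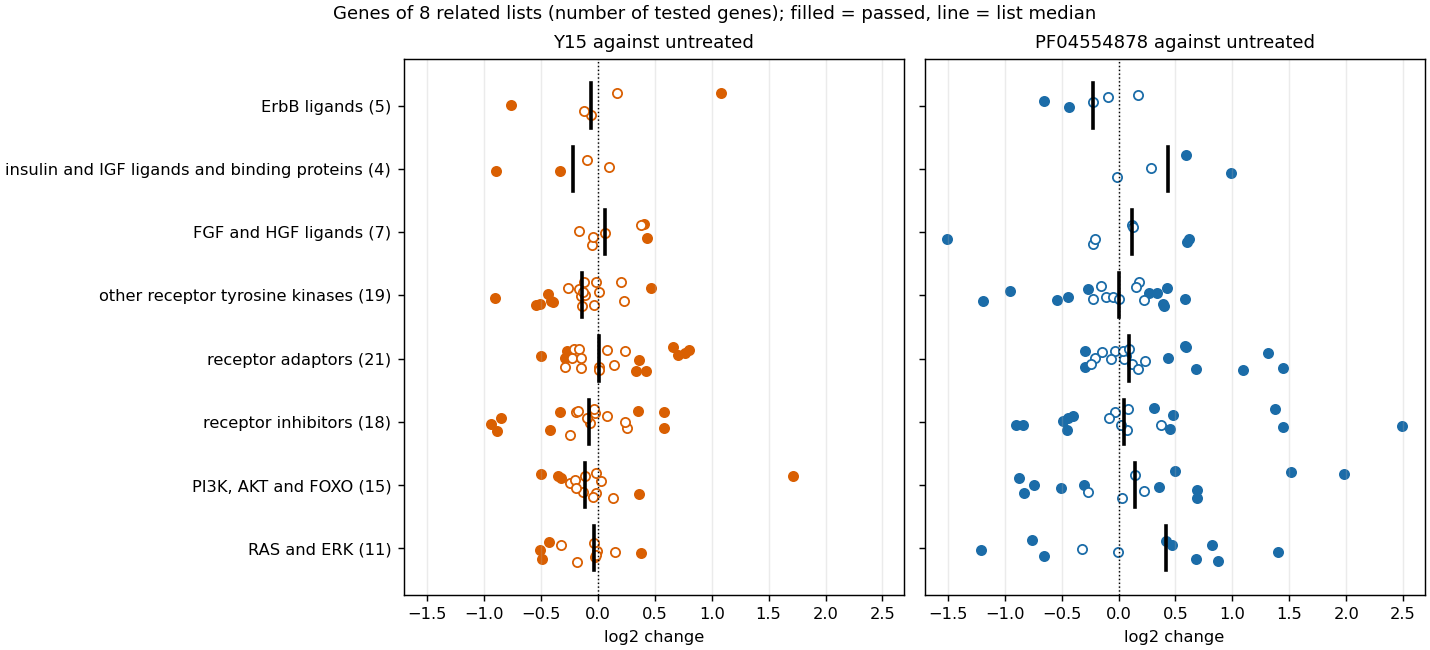
Log2 change (horizontal axis) of each tested gene in 8 pathway lists (rows), for Y15 against untreated and for PF04554878 against untreated. Filled points passed the test, and black lines are list medians. Of 100 genes, 40 passed with Y15 and 59 with PF04554878, against 38.1% and 62.2% of all 11388 tested genes.

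The genes whose pattern over the 6 arrays was most like that of the brightest ERBB3 probe were SNORD84, SCAF8, FBXW7, AMDHD1 and DNAJC27, out of 11387 genes. Likeness was the Euclidean distance after each gene's own mean was subtracted, and it was 0.138 for SNORD84, 0.163 for SCAF8, 0.169 for FBXW7, 0.189 for AMDHD1 and 0.227 for DNAJC27. FBXW7 had log2 levels of 9.78 and 9.83 with Y15, 11.38 and 11.32 with PF04554878 and 9.45 and 9.61 in untreated cells, so that, as for ERBB3, the PF04554878 arrays were highest and the Y15 arrays lay above the untreated ones. The log2 changes of these 5 genes were 1.66 to 1.95 with PF04554878 and 0.15 to 0.39 with Y15. SNORD84 and AMDHD1 lay below the lowest detected level on both untreated arrays, and AMDHD1 on both Y15 arrays as well. Their changes against untreated therefore rest on levels at background and are not exact. The 5 genes were chosen on these values, which are given as a description.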

How the data were processed

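RNA of TT cells was hybridized to 6 arrays on Illumina BeadChips, and groups came from the labels. Probes were named from the HumanHT-12 v4 annotation, which their identifiers match, although the HumanRef-8 chip is named in the methods of the study. The authors' deposited file gave the mean bead intensity per probe (linear, not background-subtracted, summarized in GenomeStudio) and a detection p-value. The authors also deposited log2 values, quantile normalized, with column medians of 6.81, which equalled those recomputed here to within 5.0e-09.

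Of 47323 probes, 47317 had values. Intensities were log2 transformed, quantile normalized and kept if detected on at least 2 arrays (18876 probes). All 6 arrays entered 1 model of group means in limma 3.58.1 in R 4.3.3 (3 residual and 5.24 prior degrees of freedom). Tests were two-sided, and a probe passed at a Benjamini-Hochberg adjusted p below 0.05 over all tested probes with a change of 1.2-fold or more (the minimum used by the study). The procedure was tested on simulated data. A probe undetected on both arrays of a group has its fold given as a bound, or not at all where that bound lies below 1. Precision is limited by the number of arrays, 2 in each group (median SE 0.10), and an exact permutation test could not go below p = 0.333. Members and lists were chosen with earlier results of these data known. From each list, the up to 3 genes with the largest change among those passing against untreated were named, plus all where a count was 5 or fewer. Passing changes of a named gene with the other compound were added outside this rule. Those were not followed singly through the alternatives. Alternatives were other background corrections, scalings, filters, thresholds, priors, sample subsets, the replicate block and leaving out each array.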

Additional observations from a re-analysis of the deposited data

How the results depend on the processing

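Of 420 values of the 7 probes under alternatives, 38 lost the call, 4 gained one and 11 turned. The other 367 kept their side of the threshold. Direction was not checked where neither fit passed, and some of those values changed sign. IGF1R with PF04554878 against untreated went from 0.01 to -0.21 with the median over all probes. Some alternatives could not move a value, such as the deposited log2 values, and the looser thresholds could only add calls. For the named pathway genes, which all passed in the main fit, 1158 values kept direction and call, 128 lost the call, 0 gained one and 15 turned. With each array scaled to its median over all probes the median gene shifted by -0.78 with Y15 and -0.59 with PF04554878 against untreated, without scaling by -1.14 and -0.76. Which scaling is nearer to transcript amounts per cell was not tested. Of all genes, 1899 were higher and 2438 lower with Y15, against 386 and 9050 under that median scaling, and 3093 and 3989 with PF04554878, against 935 and 7538.

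For Y15 against untreated, MET turned to -0.41 with the median over all probes and -0.77 without scaling. Without scaling ERBB3 also turned, to -0.29 (ILMN_1737993) and -0.33 (ILMN_2397602). The median over all probes turned AATK (-0.19), GRB10 (-0.091), CRKL (-0.29), NCK1 (-0.40), ERRFI1 (-0.15), PTPN1 (-0.57), FOXO4 (-0.43) and HRAS (-0.77), and the median over tested probes turned ERBB3 ILMN_1751346 (0.60), EGFR (0.31), IGF1R (0.31), SHC4 (0.35) and SOS1 (0.43). For PF04554878 against untreated, MET turned to -0.37 with the median over all probes and -0.54 without scaling, IGF1R to -0.38 without scaling and IGFBP6 to -0.15 with the median over all probes. The median over tested probes turned EGFR (0.25), ROR2 (0.38), SHC1 (0.43), SHC4 (0.30) and INPP4B (0.28).

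Of 5 probes passing with Y15, 6 with PF04554878 and 4 with Y15 against PF04554878, detection on all 6 arrays left 2, 2 and 0, because fewer probes were tested, and a 2-fold minimum left 0, 2 and 2. Taking 1 probe per gene left 2 with Y15 against PF04554878. Leaving out 1 array gave 0 to 5, 5 to 6 and 3 to 4. In the lists, of 40, 59 and 69 genes, a 2-fold minimum left 2, 12 and 12, and leaving out 1 array gave 21 to 40, 53 to 58 and 55 to 70. Scaling to the median over all probes gave 77 genes with Y15, and to that over tested probes 70. Where an array was left out, the single array left in its group was assumed to vary like the others.

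With the replicate number as a block the counts were 4, 6 and 4 probes and 37, 58 and 67 genes, and ERBB3 ILMN_1737993 with Y15 was the only call among the members that was lost (adjusted p = 0.0624, limma). Arrays of the same number shared only a number, their deviations correlating at -0.28, 0.21 and -0.10.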
